A study of Mus musculus with 16 samples.

Results

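The baseline pituitary transcriptome was described in control mice fed standard chow, the group whose labels read Ctrl and CHOW, which held 4 of the 16 pituitary libraries in the series. Controls were *Esr1* fl/fl females, 27 weeks old, on a mixed CD-1;129P2 background, carrying loxP sites in both copies of the gene for oestrogen receptor alpha and no Cre, so the receptor gene was intact. Whole pituitary RNA from each mouse gave 1 library, and the mice are named here by their labels, P356, P358, P359 and P383. The stage of the oestrous cycle at collection is not given in the sources used here. The group was examined alone, so the questions were which transcripts dominate the gland, which cell types they mark and how much these females differed from each other.

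The pituitary joins an anterior lobe of hormone-secreting epithelial cells, a thin intermediate lobe and a posterior lobe of axon endings and glia. Lactotrophs make prolactin, somatotrophs growth hormone, corticotrophs and melanotrophs the precursor pro-opiomelanocortin, and gonadotrophs and thyrotrophs make glycoprotein hormones that pair a shared alpha subunit with a beta subunit particular to each hormone. Hypothalamic peptides and dopamine reach these cells through portal blood, and steroid and thyroid hormones feed back on them.

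The level of a gene here is the normalized signal deposited by the authors, read as an abundance per transcript length scaled in each library. Levels were listed for 17362 genes and summed to 956546 in P356, 924598 in P358, 975687 in P359 and 910679 in P383, so these sums differed little between mice. Read totals of the libraries are not given in the sources used here. On 1426 genes with 1 annotated transcript, 84.8% to 90.5% of low levels lay within 0.1 of a whole multiple of a step, which put an estimated 949367 reads on these genes in P356, 1010689 in P358, 907151 in P359 and 1124983 in P383. By that step, 3 reads were worth between 0.155 and 0.186 units per kilobase of effective length, and levels near this floor carry large counting error.

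P356 stood apart from the other mice as a library. Across the 14151 genes with a mean level of at least 1, here counted as detected, Pearson's r of the log2 levels was 0.957, 0.958 and 0.955 between P356 and P358, P359 and P383, whereas it was 0.967 between P358 and P359, 0.965 between P358 and P383 and 0.972 between P359 and P383. These correlations run across genes, which are not independent replicates, and they describe likeness only. P356 had the lowest level of the 4 mice in 4916 detected genes (34.7%), against 3129 for P358, 3091 for P359 and 3015 for P383, and the highest in 4014 (28.4%). It was at least 2-fold above every other mouse in 159 genes and at least 2-fold below in 141, where P358 gave 61 and 92, P359 gave 52 and 42 and P383 gave 47 and 32. Values that rest on P356 are therefore given with and without it.

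The labelled tissue and sex were checked against the levels. All 7 genes for anterior and intermediate lobe hormones were detected in each mouse. The Y-linked genes *Ddx3y* (mean level 0.121) and *Eif2s3y* (mean level 0.208) lay near the floor of a few reads, and the labels give females. These 2 genes were chosen after their levels were seen. *Gm21860* and *Gm21748*, also placed on chromosome Y, each had levels of 5.398, 20.99, 14.2 and 0 in P356, P358, P359 and P383, but they share sequence with each other and with *G530011O06Rik* on chromosome X, so their levels are uncertain.

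*Prl*, which encodes prolactin (chromosome 13 of GRCm38, 27057570 to 27065205), was the most abundant transcript, with levels of 313796 in P356, 285147 in P358, 330789 in P359 and 304109 in P383. These levels were 32.8%, 30.8%, 33.9% and 33.4% of the summed levels of each mouse (mean 32.7% ± 1.341, SD, n = 4). *Prl* also varied least of the 7 hormone genes, with a coefficient of variation of 6.18%. *Gh*, which encodes growth hormone (chromosome 11, 106300271 to 106301865), had levels of 51686, 88696, 75796 and 52225 in P356, P358, P359 and P383, or 7.12% ± 1.95 (SD, n = 4) of the sum. P358 and P359 were higher in *Gh* than P356 and P383, the lower 2 were nearly equal, and the coefficient of variation was 27.2%. The ratio of *Prl* to *Gh* levels was 6.07 in P356, 3.22 in P358, 4.36 in P359 and 5.82 in P383, so the balance of the 2 hormone transcripts moved mostly with *Gh*. In bulk tissue, fewer cells of a type and less RNA per cell cannot be told apart, and this holds for every level below.

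*Pomc*, the precursor of corticotropin and melanocyte-stimulating hormone (chromosome 12, 3954951 to 3960642), followed with levels of 11506, 12434, 16132 and 17362 in P356, P358, P359 and P383 (14359 ± 2829, SD, n = 4). *Cga*, the alpha subunit that luteinizing, follicle-stimulating and thyroid-stimulating hormones share (chromosome 4, 34893779 to 34907370), had levels of 4552, 5114, 4242 and 5137 (4761 ± 439, SD, n = 4). No mouse overlapped between *Prl* and *Gh*, *Gh* and *Pomc* or *Pomc* and *Cga*, so the order of these 4 levels was the same in every mouse. *Cga* overlaps *Platr9* on the opposite strand, and the sources used here do not give whether quantification used the strand, so reads of the 2 genes may not have been told apart. Of the genes described below, *Pou1f1*, *Lhx3*, *Pitx1*, *Angpt1*, *Dio2*, *Foxl2*, *Pcsk1n*, *Greb1*, *Junb*, *Dbp*, *Tef*, *Arntl*, *mt-Co1*, *Fxyd3*, *Alas2*, *Agrp*, *Bmpr1a*, *Acvr2a*, *Nr3c2*, *Six6*, *Fst*, *Csnk2b*, *Tmem120b*, *Vps35*, *Map1lc3b*, *Gapdh* and *Neurod1* also overlap a gene on the opposite strand, and further such genes are noted where they are described.

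The beta subunits were far lower per length. *Lhb*, the subunit of luteinizing hormone (chromosome 7, 45420820 to 45421897), had levels of 921, 806, 891 and 1158 in P356, P358, P359 and P383 (944 ± 151, SD, n = 4), and it overlaps *Ruvbl2* on the opposite strand. *Tshb*, the subunit of thyroid-stimulating hormone (chromosome 3, 102775465 to 102782718), had levels of 267, 461, 348 and 277 (338 ± 89.4, SD, n = 4). *Fshb*, the subunit of follicle-stimulating hormone (chromosome 2, 107056140 to 107059656), had levels of 13.2, 48.4, 113.5 and 284 in the same order of mice (115 ± 120.3, SD, n = 4). *Fshb* thus had the widest range of the 7 hormone genes relative to its level, with the highest mouse 21.5-fold the lowest. Its SD exceeded its mean, and its levels overlapped those of *Tshb*. Without P356 the mean level of *Fshb* was 149 ± 122 (SD, n = 3), and without P383 the mean was 58.4, so the mean rested largely on P383. The *Cga* level was that of the 3 summed beta subunits multiplied by 3.79 in P356, 3.89 in P358, 3.14 in P359 and 2.99 in P383. The ratio of *Lhb* to *Fshb* levels was 69.7, 16.7, 7.85 and 4.08 in these mice, while *Lhb* itself stayed within 806 and 1158, so this ratio followed *Fshb*.

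Together the 7 hormone genes took 40.01% of the summed levels in P356, 42.5% in P358, 43.9% in P359 and 41.8% in P383 (42.0% ± 1.61, SD, n = 4). Without P356 the mean share was 42.7%. The 13 genes of the mitochondrial genome took 3.77% ± 0.212 (SD, n = 4), or 5.31% ± 0.1995 (SD, n = 4) with 3 nuclear copies described below, and 81 genes for ribosomal proteins took 6.57% ± 0.742 (SD, n = 4). The ribosomal share was 7.67% in P356 and 6.10% to 6.35% in the other mice. All other 17258 genes shared 46.1% ± 1.05 (SD, n = 4). The number of genes that made up the first 50% of the sum was 38 in P356, 26 in P358, 19 in P359 and 29 in P383, whereas 90% needed between 4165 and 4539 genes.

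**Figure D1:**
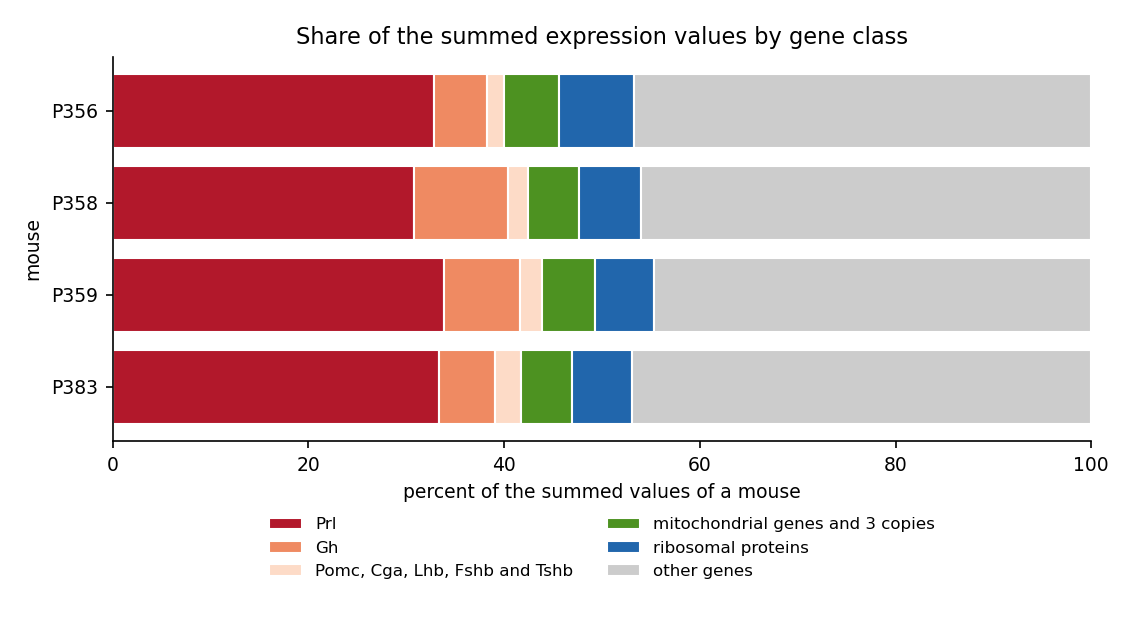
Percent of the summed levels of each mouse taken by *Prl*, *Gh*, the other 5 hormone genes, mitochondrial genes with 3 nuclear copies, ribosomal protein genes and all other genes. *Prl* took between 30.8% and 33.9% in each mouse, and *Gh* ranged from 5.403% in P356 to 9.59% in P358.

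Because the hormone genes dominated the gland, the bases upstream of their starts were searched in the 6 that had an entry in the RefSeq promoter table (GRCm38.p6); *Gh* had no entry. They are shown for 5, since those of *Lhb* lie within its transcript as annotated by GENCODE. Each line gives the last 60 bases before the RefSeq start of transcription, 5′ to 3′ on the strand of the gene, with the TATA box motif TATAAA in capitals. They lie at chr13:27057510-27057569 for *Prl* (plus strand), chr12:3954885-3954944 for *Pomc* (plus), chr4:34893719-34893778 for *Cga* (plus), chr2:107059652-107059711 for *Fshb* (minus) and chr3:102782715-102782774 for *Tshb* (minus).
Prl: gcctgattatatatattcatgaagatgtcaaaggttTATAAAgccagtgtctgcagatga
Pomc: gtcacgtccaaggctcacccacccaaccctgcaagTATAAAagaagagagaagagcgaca
Cga: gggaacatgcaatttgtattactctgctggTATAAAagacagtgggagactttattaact
Fshb: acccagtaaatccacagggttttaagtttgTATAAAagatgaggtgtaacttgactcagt
Tshb: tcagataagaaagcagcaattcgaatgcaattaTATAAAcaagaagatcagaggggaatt

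In *Fshb* and *Tshb*, the last bases shown lie within the gene as GENCODE places it. The motif began 24 bases before the RefSeq start in *Prl*, 25 in *Pomc*, 30 in *Cga*, 31 in *Lhb*, 30 in *Fshb* and 27 in *Tshb*, so all 6 promoters held it at a similar distance. On the strand of the gene, TATAAA began between 40 and 20 bases before the start in 655 of all 32851 promoters in the table (1.99%). Among 13667 promoters of detected genes the share was 1.24%. Of the 100 genes with the highest mean level, 51 had an entry, with 64 promoters. Among these 64 the share was 7.81%, or 5 promoters. Of these 5, 4 belonged to hormone genes, so that share rested mostly on the hormone genes themselves. The letters TATNCAT, the core of a motif that the pituitary factor POU1F1 can bind, were searched on both strands over 250 bases before the start and were found in *Prl* alone of the 6, at 148 and 47 bases before the start, against 7.92% of all promoters. These are matches of letters, and no binding was measured.

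Beyond the hormones, the 20 genes with the highest mean level held 7 genes of the mitochondrial genome, 3 for ribosomal proteins and 3 nuclear pseudogenes that resemble mitochondrial genes. *mt-Atp6*, a subunit of ATP synthase, had a mean level of 5628 ± 615 (SD, n = 4), and *mt-Co1*, a subunit of cytochrome c oxidase, 5236 ± 212 (SD, n = 4). *Gm28661* (7012 ± 532, SD, n = 4), *Gm29216* (4045 ± 399, SD, n = 4) and *Gm28437* (3423 ± 544, SD, n = 4) each have a stretch of 100 bp or longer, at least 90% identical, in common with *mt-Co2*, *mt-Co1* and *mt-Co3*. Levels of these pairs are uncertain, since quantification could place reads of a mitochondrial transcript on its nuclear copy. *mt-Co2* itself was listed at only 714, 181, 498 and 651 in P356, P358, P359 and P383, below *Gm28661* in each mouse.

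*Chgb*, which encodes chromogranin B, a core protein of secretory granules, was the most abundant granule gene, with levels of 2851, 3545, 5137 and 5989 in P356, P358, P359 and P383 (4380 ± 1437, SD, n = 4). P359 and P383 were high in *Chgb*, the same mice that were high in *Pomc*. *Gnas*, which encodes the stimulatory G protein subunit through which several hypothalamic peptides signal, had a mean level of 3194 ± 506 (SD, n = 4), and it shares exons with *Nespas* and *Gm20721* on the opposite strand. *Eef1a1*, a translation elongation factor (4029 ± 426, SD, n = 4), and the ribosomal protein genes *Rps27*, *Rpl41* and *Rps21* (3980 ± 313, 3108 ± 381.3 and 2489 ± 75.2, SD, n = 4 each) completed this set with further mitochondrial genes. *Eef1a1*, *Rps27*, *Rpl41* and *Rps21* share sequence with 27, 12, 1 and 3 other genes, and *mt-Atp6* with 3, so these levels are also uncertain. From *mt-Atp6* downwards, each gene overlapped the next in its range over mice, so the order below the first 4 genes was not fixed.

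**Figure D2:**
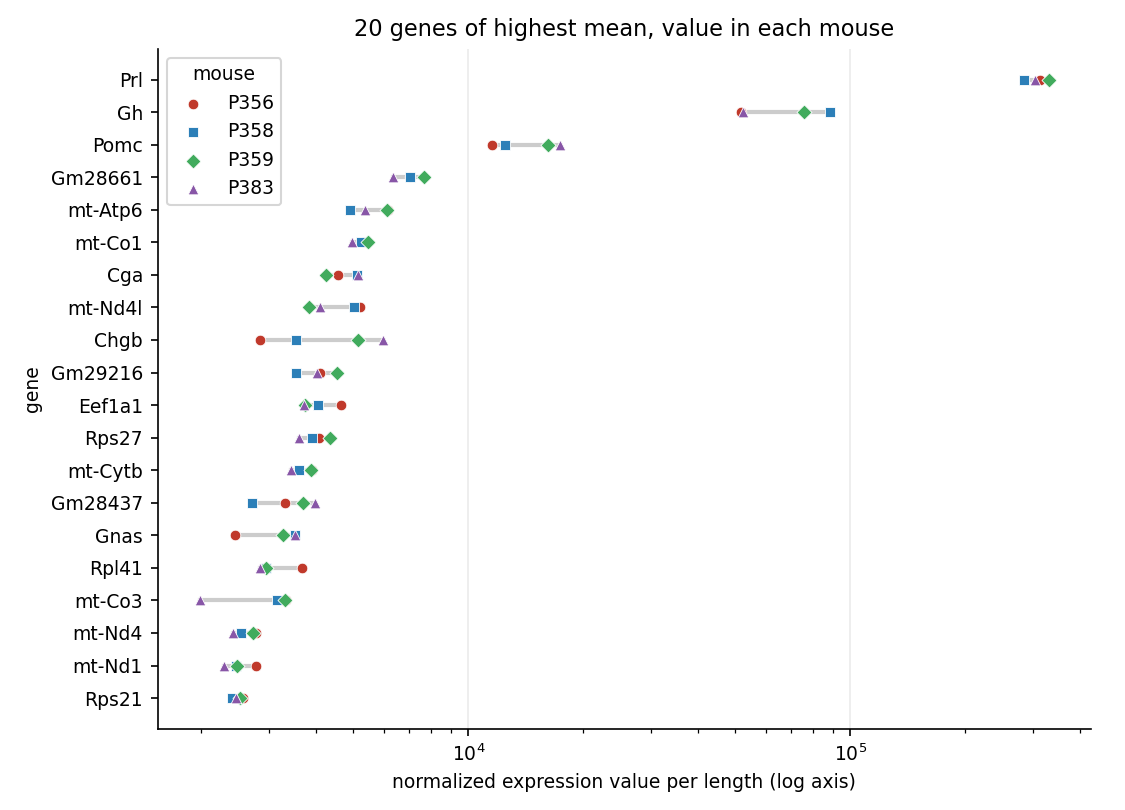
Levels of the 20 genes with the highest mean in each of the 4 mice, on a log axis, with a grey bar from the lowest to the highest mouse. *Prl*, *Gh*, *Pomc* and *Gm28661* did not overlap their neighbours, and *Chgb* ranged from 2851 in P356 to 5989 in P383.

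A mean level of at least 1 was reached by 14151 genes, of at least 10 by 8422, of at least 100 by 771, of at least 1000 by 55 and of at least 10000 by 3. In every mouse, 13103 genes reached 1. The genes listed at 0 numbered 120 in P356, 310 in P358, 247 in P359 and 134 in P383, and 7 were listed at 0 in all 4 mice.

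Secretory machinery came next. Of 7 genes for prohormone processing, all had a mean level of at least 10, against 48.5% of all listed genes, and the leading member was *Scg5*, the chaperone of prohormone convertase 2, with levels of 1426, 1616, 1524 and 1553 in P356, P358, P359 and P383. *Pcsk1n*, an inhibitor of prohormone convertase 1, had a mean level of 540.0 ± 58.8 (SD, n = 4) and *Cpe*, which encodes carboxypeptidase E, 504 ± 70.3 (SD, n = 4). P356 was the lowest mouse in 6 of the 7 genes, against 34.7% of all detected genes. The convertases themselves were less abundant, with *Pcsk2* at 52.3, 66.3, 66.1 and 77.0 and *Pcsk1* at 32.5, 47.3, 38.5 and 39.4 in the same order, and the *Pcsk2* level exceeded that of *Pcsk1* in each mouse, by 1.40-fold to 1.96-fold. *Pcsk2* overlaps *Pcsk2os1* and *Pcsk2os2* on the opposite strand and shares sequence with 62 other genes, so its level and this ratio are uncertain.
Among granule genes after *Chgb*, *Scg2*, which encodes secretogranin II, had levels of 672, 1383, 1548 and 1664 in P356, P358, P359 and P383, so P356 was less than 0.5 times the level of any other mouse. *Chga*, which encodes chromogranin A, had a mean level of 567 ± 109.6 (SD, n = 4). *Snap25*, a protein of the fusion machinery, stayed between 226 and 243 in the 4 mice, and *Scg3*, which anchors granins to the granule membrane, between 309 and 331. Members of this group therefore ranged from steady to more than 2-fold apart between mice.

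Each endocrine cell type list had detected genes. Of the 103 genes with a level on the 23 cell type lists, 82 were detected, near the share of all listed genes (81.5%), so these counts alone do not mark a cell type and the levels are given. In the lactotroph list, all 6 genes were detected. *Drd2*, the dopamine receptor through which dopamine restrains prolactin, had levels of 52.5, 61.8, 67.4 and 69.8 in P356, P358, P359 and P383 (62.9 ± 7.67, SD, n = 4), and *Prlr*, the prolactin receptor, 5.09, 8.85, 7.16 and 7.32. *Angpt1*, which encodes angiopoietin 1, was 23.6 in P356 and 57.3 to 77.2 in the other mice. In the somatotroph list, 4 of 5 genes were detected. *Dlk1*, a membrane protein that somatotrophs carry, had levels of 1060, 1417, 1315 and 1309, and *Ghrhr*, the receptor for growth hormone-releasing hormone, 54.3, 91.97, 106 and 68.8. P358 and P359 were the highest mice for both *Gh* and *Ghrhr*. *Ghsr*, the ghrelin receptor, had a mean level of 0.706 and was the member below 1.

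In the corticotroph list, 4 of 5 genes were detected. *Tbx19*, the transcription factor that drives *Pomc* in corticotrophs and melanotrophs, had levels of 18.96, 25.2, 46.8 and 52.5 in P356, P358, P359 and P383, the same order of mice as for *Pomc*. *Crhr1*, the receptor for corticotropin-releasing hormone, had levels of 4.07, 5.35, 5.87 and 6.53, and *Avpr1b*, the vasopressin receptor of corticotrophs, 1.49, 3.12, 2.91 and 1.79. *Crhr1* also kept that order, whereas *Avpr1b* did not. *Gpc5*, the member with a mean below 1, did not keep it either, at 0.743, 0.8145, 1.11 and 0.354. It overlaps *Gm20713* on the opposite strand. Genes of other lists also kept the order of *Pomc*, among them *Drd2*, *Fshb*, *Nr5a1*, *Sox2* and *Thra*. That order was therefore not particular to corticotroph genes, and its share among all detected genes was not counted. All 3 melanotroph genes were detected in each mouse, and *Pcsk2* among them is also a general prohormone convertase. *Pax7*, the factor that sets melanotroph identity, had levels of 4.80, 6.87, 6.46 and 7.38, and the summed level of the 3 genes was 99.4 in P356, 128 in P358, 129.5 in P359 and 159 in P383.

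In the gonadotroph list, 8 of 8 genes were detected. *Gnrhr*, the receptor for gonadotropin-releasing hormone, had levels of 51.4, 62.6, 62.3 and 50.8 in P356, P358, P359 and P383, and *Nr5a1*, the factor SF-1 that gonadotrophs require, 14.4, 15.3, 16.1 and 21.3. *Tgfbr3l*, an inhibin B co-receptor of gonadotrophs, had levels of 154, 197, 190 and 247.5. P383, the mouse with the highest *Fshb*, was thus also the highest for *Lhb*, *Nr5a1* and *Tgfbr3l*, and the lowest for *Gnrhr* and *Foxl2*. With levels rescaled to a common sum, P356 and not P383 was the lowest for *Gnrhr*. Of the 5 thyrotroph genes, *Sox14* was not analysed here and the other 4 were detected. *Dio2*, the deiodinase that makes active thyroid hormone, had a mean level of 22.7 ± 7.28 (SD, n = 4), and *Trhr*, the receptor for thyrotropin-releasing hormone, only 1.39 ± 0.202 (SD, n = 4).

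Of the stem and folliculostellate list, 5 of 7 genes were detected, against 81.5% of all listed genes. *Aldh1a2*, an enzyme of retinoic acid synthesis, led the list with 23.9, 25.0, 27.7 and 26.4 in P356, P358, P359 and P383, and *Sox2*, the stem cell factor, had levels of 14.6, 17.3, 18.9 and 20.5. *S100b*, a common folliculostellate marker, had a mean level of 0.499 and *Fxyd3* 0.0871, so these 2 genes of the list were not detected.
Pituicyte genes of the posterior lobe were low. All 5 pituicyte genes were detected, none at a mean of 10, where 81.5% of all listed genes were detected. *Col25a1*, a membrane collagen, led with 11.9, 6.40, 6.06 and 7.43 in P356, P358, P359 and P383, but it shares sequence with 191 other genes and its level is uncertain. P356 was the highest mouse for *Col25a1* and the lowest in 3 of the 5 genes, against 34.7% of all detected genes. With levels rescaled to a common sum, P356 was the lowest in 4 of the 5. *Nkx2-1*, the factor whose promoter drives Cre in the mutants of the study, had levels of 1.54, 1.56, 2.32 and 1.51. *Oxt* and *Avp*, the precursors of oxytocin and vasopressin that hypothalamic axons carry into the posterior lobe, had mean levels of 21.4 ± 6.06 and 7.01 ± 3.84 (SD, n = 4 each). P383 was the highest mouse for both, and the 2 genes share sequence with each other.

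Support cells followed. In the endothelial list 8 of 8 genes were detected, led by *Plvap*, a protein of fenestrated capillaries, with levels of 66.0, 76.9, 79.6 and 67.1 in P356, P358, P359 and P383. The list summed to between 125.5 and 146. Mural cells gave 5 of 6 genes, led by *Rgs5*, a regulator of G protein signalling in pericytes, with a mean level of 28.2 ± 6.72 (SD, n = 4), and fibroblasts 6 of 6, led by the collagen gene *Col1a2* with 177 ± 23.5 (SD, n = 4). Its partner *Col1a1*, which encodes the other chain of the same collagen, had a mean level of only 3.18 ± 0.574 (SD, n = 4), so the levels of the 2 chains differed widely and no mouse overlapped. Macrophages gave 8 of 8 genes, led by the complement gene *C1qa* at 16.3 ± 2.62 (SD, n = 4).

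Of the cell type lists with a detected gene, the erythroid list varied most between mice, with the highest sum 5.59-fold the lowest. Its mean sum of 1524 was 947.8 without P359. The 4 haemoglobin genes and *Alas2*, the first enzyme of haem synthesis in red cells, summed to 581 in P356, 582 in P358, 3252 in P359 and 1680 in P383. All 5 were highest in P359. The summed alpha globin level was 1.18-fold to 1.35-fold that of beta globin in each mouse, so both chains varied together, and the pairs *Hba-a1* with *Hba-a2* and *Hbb-bs* with *Hbb-bt* share sequence. Of 4 lymphocyte genes and 2 neutrophil genes, 0 were detected.

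Lists of other tissues were mostly at the floor. Of 3 skeletal muscle genes and the single adipocyte gene with a level, *Plin1*, 0 were detected. The cartilage and bone list was represented by *Col2a1* alone, with 3.91, 4.11, 3.87 and 7.77 in P356, P358, P359 and P383, and the Schwann list gave 1 of 2 genes. Astrocytes and oligodendrocytes gave 3 of 4 genes, none above a mean of 2.48 (*Aqp4*, a water channel of glial cells). Of the hypothalamic neuron list only *Agrp* and *Hcrt* had a level, at means of 3.74 and 0.327, and *Pmch*, *Trh*, *Ghrh* and *Crh* were not analysed here. Dividing cells gave 3 of 6 genes, led by *Top2a*, a topoisomerase of proliferating cells, at 2.62, 1.39, 1.71 and 3.94, while the proliferation marker *Mki67* had a mean level of 0.317.

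**Figure D3:**
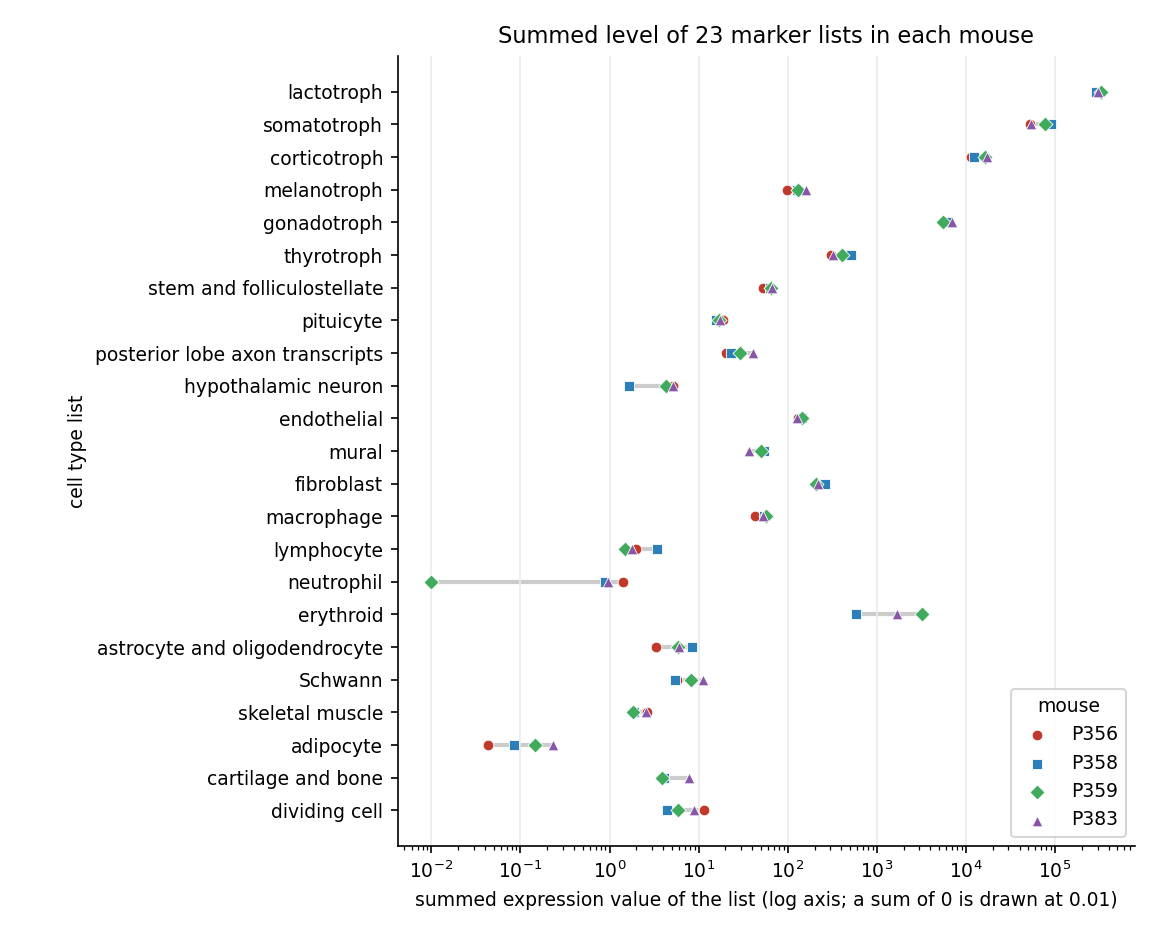
Summed level of each of 23 cell type lists in each mouse, on a log axis, with lists of unequal length. The erythroid list ranged from 581 in P356 to 3252 in P359, whereas the endothelial list stayed between 125.5 and 146.

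Of 17 receptors for hypothalamic signals with a level, 11 were detected, against 81.5% of all listed genes. *Ghrhr* (80.3 ± 23.1, SD, n = 4), *Drd2* and *Gnrhr* (56.8 ± 6.54, SD, n = 4) overlapped in their ranges and lay above all others in each mouse. Somatostatin receptors followed, with *Sstr1* at 21.1, 16.5, 15.5 and 21.4 in P356, P358, P359 and P383, *Sstr3* at a mean of 8.30 ± 1.55 (SD, n = 4) and *Sstr5* at 3.25 ± 0.420 (SD, n = 4), while *Sstr2* was below 1 at 0.573. *Sstr1* did not overlap *Sstr3* in any mouse. *Oxtr*, the oxytocin receptor, was 8.89 in P356 and at most 0.667 in the other mice, so its mean of 2.61 rested on P356 and was 0.519 ± 0.194 (SD, n = 3) without it. *Galr1*, a galanin receptor, was likewise 1.37 in P356 and 0.166 to 0.243 in the others, and *Prlhr* was not analysed here.

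Receptors for peripheral signals were detected in 11 of 12 cases, where 81.5% of all listed genes were, and the shares of nuclear receptors and lineage factors below are to be read against the same percentage. *Igf1r*, the receptor of insulin-like growth factor 1, had the highest mean, with 33.0, 22.8, 23.5 and 29.9 in P356, P358, P359 and P383, and *Bmpr1a*, a receptor of bone morphogenetic proteins, followed with a mean level of 22.98 ± 1.68 (SD, n = 4) and exceeded it in P358 and P359. The activin receptor genes *Acvr1b* (13.7 ± 1.18, SD, n = 4), *Acvr2b* (8.70 ± 2.01, SD, n = 4) and *Acvr2a* (7.67 ± 1.19, SD, n = 4), through which activins raise *Fshb*, were of middle rank. *Lepr*, the leptin receptor, was low in P356 (2.10) and P358 (2.03) and high in P359 (6.67) and P383 (6.86), with no mouse between. Part of *Lepr* resembles sequence in other annotated genes, so its level is uncertain.

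Nuclear receptors were detected in 11 of 12 cases. *Thra*, which encodes thyroid hormone receptor alpha, led with levels of 56.5, 71.5, 85.9 and 88.4 in P356, P358, P359 and P383, and it overlaps *Nr1d1* on the opposite strand. *Thrb*, the beta receptor, had levels of 63.0, 45.2, 29.3 and 36.2, so it exceeded *Thra* in P356 only (ratio of *Thra* to *Thrb* 0.896 in P356 and 1.58 to 2.93 in the others). *Esr1*, which encodes oestrogen receptor alpha and is floxed but intact in these mice, had levels of 40.6, 46.7, 39.4 and 29.0. The other oestrogen receptor gene, *Esr2*, had a mean level of 0.144 ± 0.0728 (SD, n = 4), at the floor, so *Esr1* carried nearly all oestrogen receptor transcript in each mouse. *Pgr*, the progesterone receptor that oestrogen induces, was 17.4 in P356 and 4.56 to 5.93 in the other mice, with a mean of 8.36 ± 6.03 (SD, n = 4) that fell to 5.36 ± 0.710 (SD, n = 3) without P356. The glucocorticoid receptor *Nr3c1* (15.8 ± 3.06, SD, n = 4) and the mineralocorticoid receptor *Nr3c2* (11.5 ± 0.981, SD, n = 4) overlapped in their levels.

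Among lineage transcription factors, 20 of 22 genes with a level were detected. *Pou1f1*, the factor that lactotrophs, somatotrophs and thyrotrophs need, led with 212, 328, 367 and 331 in P356, P358, P359 and P383 (309.5 ± 67.5, SD, n = 4), and no mouse overlapped the next gene. Without P356 its mean was 342 ± 22.0 (SD, n = 3). The early pituitary factors *Lhx3* (127.5 ± 18.6, SD, n = 4) and *Pitx1* (104 ± 6.03, SD, n = 4) were also abundant. *Six6*, a homeobox factor of pituitary progenitors, had a mean level of 39.1 ± 5.11 (SD, n = 4). Factors of smaller cell types were lower, with *Gata2*, a factor of gonadotrophs and thyrotrophs, at 12.7, 25.3, 34.9 and 28.9, *Isl1* at a mean of 12.1 ± 4.32 (SD, n = 4) and *Foxl2*, which drives *Fshb*, at 10.9 ± 2.22 (SD, n = 4). *Sox3* and *Lhx4* were below 1, and *Hesx1* was not analysed here. P356 was the lowest mouse in 18 of these 22 genes, against 34.7% of all detected genes, and the count was the same with levels rescaled to a common sum and with median-of-ratios scaling. Rescaling to a common sum moved the median of all genes by 0.06, 0.11, 0.04 and 0.14 on the log2 scale in P356, P358, P359 and P383. *Neurod4*, a factor of developing somatotrophs and corticotrophs, was highest in P356, at 71.5 against 23.5 to 29.7 in the other mice, as were *Foxl2* (14.2 against 9.26 to 10.3) and *Neurod1* (2.05 against 1.26 to 1.38).

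**Figure D4:**
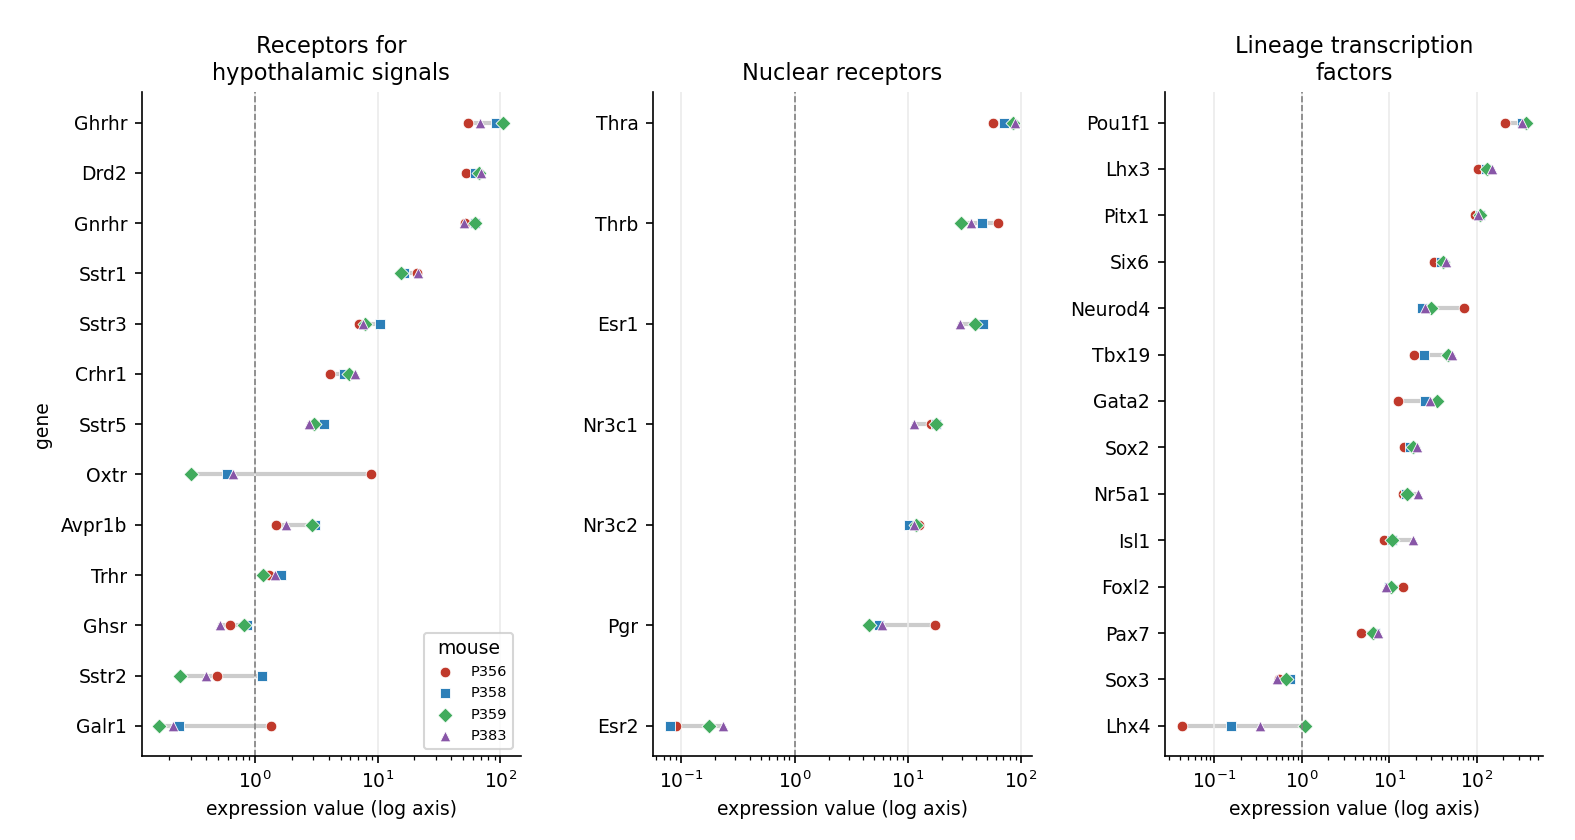
Levels in each mouse of the receptors for hypothalamic signals, nuclear receptors and lineage transcription factors named in the text, on log axes, with a dashed line at a level of 1. *Oxtr*, *Galr1*, *Pgr* and *Neurod4* were high in P356 alone, and *Pou1f1* led the transcription factors in each mouse.

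Local peptides and growth factors were dominated by *Gal*, which encodes galanin, a peptide that lactotrophs make under oestrogen. Its levels were 1294 in P356, 278 in P358, 192.5 in P359 and 94.7 in P383. The mean of 465 ± 558 (SD, n = 4) rested on P356 and was 188 ± 91.7 (SD, n = 3) without it. *Prlh*, which encodes prolactin-releasing peptide, was 17.1 in P356 and listed at 0 in the other mice. *Greb1*, another gene that oestrogen induces, was 106 in P356, 53.6 in P358, 39.8 in P359 and 49.3 in P383, so P356 was the highest mouse for *Gal*, *Pgr* and *Greb1* but not for *Prl*, which was highest in P359. Of all detected genes, 28.4% were highest in P356, and these 4 genes were listed together with earlier results of these data known, so their count is only a description.

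*Inha*, the inhibin alpha subunit, stayed between 50.1 and 63.2 in the 4 mice. Its partners *Inhbb* (6.09 ± 1.05, SD, n = 4) and *Inhba* (1.26 ± 0.422, SD, n = 4) were lower, and *Fst*, the activin antagonist follistatin, had a mean level of only 0.195 ± 0.0929 (SD, n = 4). *Penk*, which encodes proenkephalin, had levels of 58.2, 71.8, 72.0 and 47.1 in P356, P358, P359 and P383 and overlaps *A830012C17Rik* on the opposite strand. *Ccn3*, the gene whose product the study describes as a brain hormone acting on bone, was near the detection limit set here, at 1.496, 1.65, 0.730 and 0.842. *Adcyap1* was listed at 0 in all 4 mice, and *Npy*, *Sst*, *Nts* and *Tac1* were not analysed here.

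Mouse-to-mouse spread was taken as the SD of log2(level + 0.5) over the 4 mice. Its median over the 14151 detected genes was 0.21, and 0.17 without P356. An SD above 1 was seen in 258 genes (1.82%). This count depended on the settings, at 397 with a pseudocount of 0.1, 159 with 1 and 101 with a minimum mean of 5. Spread fell with level, with a median SD of 0.29 for genes with a mean level of 1 to 10, 0.18 for 10 to 100 and 0.16 for 100 or more. In protein-coding genes the median was 0.21, with 171 of 13591 above 1, and in other biotypes 0.46, with 87 of 560 above 1.

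The 10 largest spreads among genes with a mean of at least 10 were in *Rpl35a-ps3*, *Rpl35a-ps2*, *Rpl35a-ps4*, *Rpl35a-ps6*, *Gm10243*, *Gm2000*, *Gm10925*, *Dynlt1-ps1*, *Rpl29* and *Rpl10a-ps1*, and each of these shares sequence with other genes. The first 5 had the same value in every mouse, 55.7 in P383 and under 0.5 in each other mouse. *Rpl29*, a ribosomal protein gene that shares sequence with 104 others, was 8.45 in P383 and 264 to 350 in the others. Levels of these 10 are uncertain for that reason.
The ranking was therefore repeated, after the levels had been seen, for protein-coding genes with no such shared sequence. *Ptpn5*, a tyrosine phosphatase first studied in brain, led with 105 in P356 and 1.96 to 5.90 in the other mice. *Impg1*, *Asic2*, an acid-sensing channel, and *Aebp1* were also high in P356 alone, with *Aebp1* at 350.0 in P356 and 21.3 to 27.2 in the others. The neighbouring lipoxygenase genes *Alox15* and *Alox12e*, both on chromosome 11, were low in P383 alone, at 0.657 and 2.18 against 10.9 to 20.1 and 20.9 to 28.3 in the other mice. *Fshb*, *Fos*, *Chrna6* and *Gal* completed the 10, and *Chrna6*, a nicotinic receptor subunit, was 3.301 in P356, 48.6 in P358, 44.3 in P359 and 26.8 in P383.

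At the other end, *Csnk2b*, *Tmem120b*, *Vps35*, *Fam114a1*, *Rbm17*, *Pbxip1*, *Samhd1*, *Map1lc3b*, *Ppdpf* and *Trip12* had the 10 smallest spreads. Of these, *Vps35*, *Pbxip1*, *Samhd1*, *Map1lc3b* and *Trip12* share sequence with 38 to 1664 other genes, and *Tmem120b* and *Ppdpf* with 1 other gene each. *Csnk2b*, the regulatory subunit of casein kinase 2, had levels of 89.7, 89.2, 89.8 and 89.1 in P356, P358, P359 and P383, and *Vps35*, a subunit of the retromer, 41.98, 42.4, 42.6 and 42.5. These 10 were chosen for their small spread. The 10 genes often used as references had a median SD of 0.26, above the 0.21 of all detected genes. *Gapdh*, a glycolytic enzyme whose gene shares sequence with 281 others, was 740 in P356 and 507 to 568 in the other mice, *B2m*, the light chain of class I major histocompatibility molecules, 192 in P356 and 317 to 382.4 in the others, and *Actb*, the gene for beta-actin, 356.3, 316, 310.4 and 306. P356 was the highest mouse in 7 of 10 reference genes, against 28.4% of all detected genes, with levels as deposited. The count of 7 was the same with levels rescaled to a common sum and with median-of-ratios scaling.

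**Figure D5:**
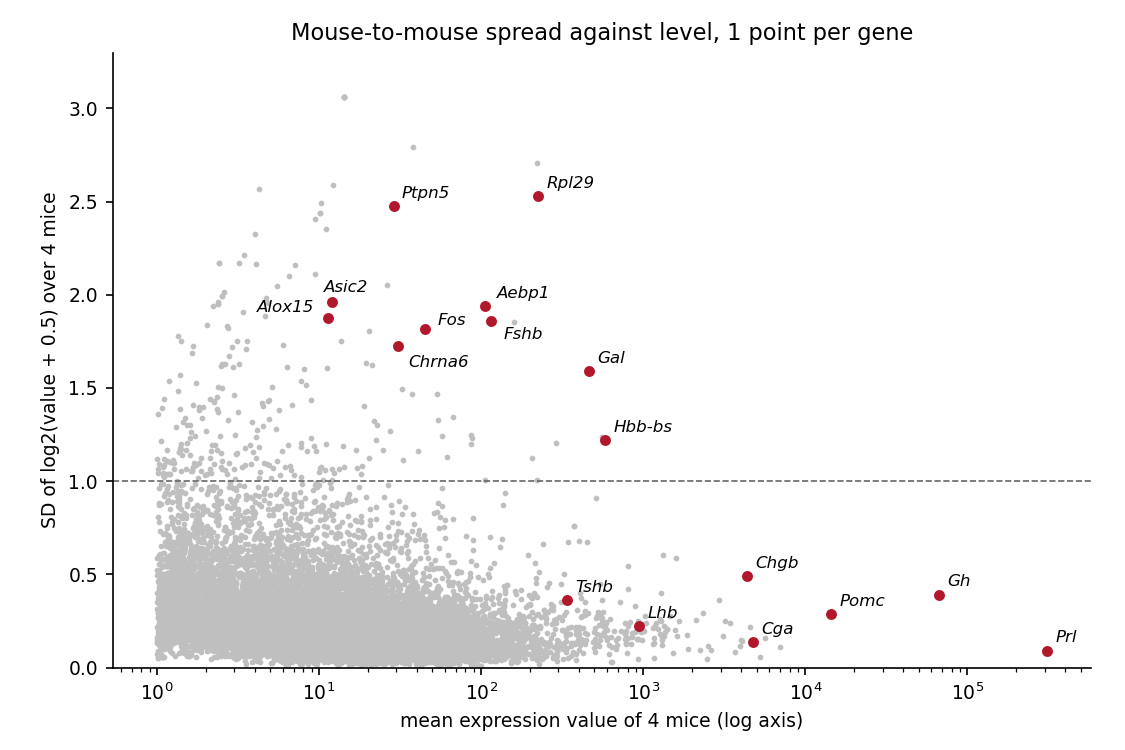
SD of log2(level + 0.5) over the 4 mice against the mean level, with 1 point for each of 14151 detected genes, a log horizontal axis and a dashed line at an SD of 1. *Prl* lay at 0.09 and *Gh* at 0.39, whereas *Fshb* lay at 1.86 and *Gal* at 1.59.

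Groups of acute response genes also separated the mice. Of 10 immediate early genes, which neural and hormonal stimuli or handling can induce within minutes, P383 was the highest mouse in 8 and P358 the lowest in 9, against 24.0% and 22.1% of all detected genes. *Fos* had levels of 13.9, 6.18, 68.7 and 92.3 in P356, P358, P359 and P383, and *Junb* 50.4, 27.6, 58.5 and 99.3. *Nr4a2*, the gene of this list with the highest mean, was instead highest in P356, at 99.0, 29.98, 49.7 and 90.4 in the same order. Both counts were the same with levels rescaled to a common sum and with median-of-ratios scaling. Of 13 circadian clock genes, P383 was the highest in 8, or in 7 with median-of-ratios scaling. *Dbp*, an output gene of the clock, was 46.1 in P383 and 11.2 to 17.7 in the others, and *Tef*, its relative, 99.1 in P383 and 47.8 to 51.6 in the others. *Nr1d1*, a repressor of the clock, had levels of 23.1, 45.1, 61.8 and 97.95, while *Arntl*, which it represses, had 19.5, 27.5, 20.2 and 12.7, so P383 was the highest mouse for *Nr1d1* and the lowest for *Arntl*. Times of collection are not given in the sources used here, and their part in these levels was not tested.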

How the data were processed

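Pituitary RNA was sequenced by the authors on a NovaSeq from NEBNext Ultra II libraries, 1 per mouse, and reads were quantified with Kallisto in gene mode on the mm10 mouse transcriptome. Tool versions, the annotation release, the filter on genes and the use of strand are not given in the sources used here. The authors deposited 1 normalized expression signal per gene and mouse, which is not a count; its scaling is not given, and its sums and low values look like abundances per transcript length, so levels were compared between genes on that reading. Columns of 12 other samples of the series were not used, and no group was compared with another.

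Levels were used as deposited, with means, SDs and ranges over 4 mice, and no test between groups; Dixon's ratio was used to search for distant mice. Spread used log2(level + 0.5). A mean of at least 1 counted as detected, and of at least 10 for genes named for spread. Symbols were found for 17351 genes, and positions from GENCODE M21 on GRCm38. Genes named are the 7 hormone genes, the 20 with the highest mean, the leading members of each list, and the 10 largest and 10 smallest spreads. *Ddx3y*, *Eif2s3y*, *mt-Co2* and other list members were named after their levels were seen. Members and lists were chosen with earlier results of these data known. BLAST 2.17.0 was used to find genes with a shared stretch (90% identity, 100 bp), repeats included. The size of 1 read came from genes with 1 transcript, where 84.8% to 90.5% of low levels, up to 5 reads, lay within 0.1 of a whole number; the fragment length and a rule against too small steps were set after the values were seen, and the search was tested on simulated data. Alternatives were other denominators, minimum means, pseudocounts, scalings, medians and leaving out each mouse. Python 3.11.15, numpy 2.4.6, pandas 2.3.3 and matplotlib 3.10.9 were used. Promoter sequences are RefSeq's.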

Additional observations from a re-analysis of the deposited data

Results flagged for a closer look

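Across 270 measures (12 of the libraries, 36 list sums and 222 genes), the gap between the most distant mouse and its nearest neighbour was divided by the range of the 4 mice (Dixon's ratio, 95% level). In 35 measures it exceeded that level. P356 was the distant mouse in 19 of them, always as the highest, P383 in 9, P358 in 4 and P359 in 3. Chance would flag about 1 in 20, or 13.5, among independent measures. These measures are not independent, and genes named for a large spread were selected for such a pattern, so 35 cannot be set against 13.5. Such genes among the 35 are *Rpl35a-ps3*, *Rpl35a-ps2*, *Rpl35a-ps4*, *Rpl35a-ps6*, *Gm10243*, *Rpl10a-ps1*, *Ptpn5*, *Impg1*, *Asic2*, *Aebp1* and *Gal*. The first 5 of these share the same values, and *Col2a1* counts both as a gene and as a list sum. In P356, *Gal* made up 1294 of the 1464 summed over local peptides and growth factors. The sum of common reference genes includes *Rplp0*, and the ribosomal share includes *Rplp0* and *Rpl41*, so these flags overlap as well. No explanation was tested.

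In P356, the ribosomal share was 7.67% (others 6.10% to 6.35%), the detected genes with the lowest level in that mouse numbered 4916 (others 3015 to 3129), and those at least 2-fold above every other mouse 159 (others 47 to 61). The summed level of local peptides and growth factors was 1464 (others 248 to 445) and of common reference genes 7284 (others 5985 to 6175). Single genes in which P356 was the distant mouse were *Gal* at 1294 (others 94.7 to 278), *Pgr* at 17.4 (4.56 to 5.93), *Oxtr* at 8.89 (at most 0.667), *Prlh* at 17.1 (others listed at 0), *Vip*, a peptide that can release prolactin, at 4.65 (2.57 to 2.91), *Neurod4* at 71.5 (23.5 to 29.7), *Neurod1* at 2.05 (1.26 to 1.38), *Flt1*, a receptor of endothelial growth factor, at 5.88 (5.06 to 5.19), *Rplp0* at 707 (504 to 537), *Rpl41* at 3674 (2846 to 2960), *Ptpn5* at 105 (1.96 to 5.90), *Impg1* at 40.4 (0.606 to 1.66), *Asic2* at 41.1 (2.06 to 2.53) and *Aebp1* at 350.0 (21.3 to 27.2).

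In P383, *Tef* was 99.1 (others 47.8 to 51.6), and *Rpl35a-ps3*, *Rpl35a-ps2*, *Rpl35a-ps4*, *Rpl35a-ps6* and *Gm10243* were each 55.7 (0.195 to 0.492). *Col2a1*, the only cartilage and bone gene with a level and thus also the sum of that list, was 7.77 (3.87 to 4.11). *mt-Co3* was 1983 in P383 (3152 to 3333). *Gm28437*, which shares sequence with *mt-Co3*, was highest in that mouse, at 3969 (2711 to 3692), so the levels of this pair are uncertain. In P358, *Pcsk1n* was 627 (497.5 to 519), *Tgfbr1* 13.8 (11.96 to 12.2), *Rpl10a-ps1* 33.8 (at most 4.03) and *Agrp* 1.67 (4.28 to 4.71). In P359, *Nkx2-1* was 2.32 (1.51 to 1.56) and *Igf1* 2.97 (2.30 to 2.39), and the remaining gene of the 35 measures is not described here.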

How the results depend on the processing

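The hormone share of 42.0% was 43.7% both without mitochondrial genes in the sum (43.69%) and over protein-coding genes alone (43.73%), by construction of a smaller sum, and ranged from 41.4% to 42.7% when each mouse was left out. With each of these 2 denominators the hormone share moved by more than its SD of 1.61. With other denominators or the median over mice, the shares of *Prl* and *Gh* moved by less than their SD. Leaving out 1 of 4 mice cannot move a mean by its SD, so such ranges do not test stability: *Prl* ranged from 32.4% to 33.4% and *Gh* from 6.30% to 7.70%. Means that moved over 1.5 times included *Fshb*, 114.8 and 58.4 without P383, *Gal*, 465 and 188, *Oxtr*, 2.61 and 0.519, and *Pgr*, 8.36 and 5.36, without P356, and the erythroid sum, 1524 and 947.8 without P359. The median SD of log2 levels ranged from 0.17 to 0.21 when each mouse was left out, lowest without P356. The 258 genes with an SD above 1 became 397 with a pseudocount of 0.1, 159 with 1, 101 with a minimum mean of 5, and 171 in protein-coding genes, an alternative added after seeing the data; leaving out each mouse gave 220 (without P356) to 313. Detected genes numbered 17027 at a minimum mean of 0.1 and 10728 at 5. The 20 most abundant genes were the same under rescaling and ranking by median, and 19 of 20 without P383. Rescaling without *Prl* in the sum raised 20 of 23 list sums by more than their SD, by construction; none of 47 alternatives with other settings moved a list sum or single gene that far. No paired analysis was possible because mice of 1 group were examined and numbers were given in accession order. Levels near the size of a few reads carry large counting error.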
